A study of Rattus norvegicus with 372 samples.

Results

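WY14643 (pirinixic acid), a synthetic agonist of the nuclear receptor PPARα, was given to primary rat hepatocytes at 200 µM for 24 h, and gene expression was compared with vehicle wells (0.5% DMSO). The wells were taken by their labels, with no measured value in the rule: they are the 6 wells with WY14643 at 200 µM, 3 in each of 2 batches, of the 186 wells of the series, each run by the WT assay (22253 probes) and by the ST assay (2654 probes). Their controls are all vehicle wells of the same batch, 3 in batch 1 and 6 in batch 2, and 6 wells with WY14643 at 8 µM served for a direct comparison of concentrations. All of these hepatocytes came from male Wistar rats, were kept between layers of collagen in medium with dexamethasone and insulin, and received the same share of DMSO. Wells of culture medium alone, for which no share of DMSO is given, served as a second control in some checks. By WT they differed from the vehicle wells in 157 of 10191 genes in batch 1 and in 1437 in batch 2 (edgeR, adjusted p under 0.05). Against these wells, effects of WY14643 and of DMSO cannot be told apart. Each batch is the cells of 1 rat, so its 3 wells per treatment differ only technically and p-values within a batch measure the spread between wells of that animal. Accordingly, a gene is said here to have risen or fallen only when its adjusted p was under 0.05 in both batches with the same sign. In batch 1 the WY14643 wells and the vehicle wells lay on different plates, so that plate and treatment cannot be told apart there, whereas in batch 2 the WY14643 plate also held 3 of the 6 vehicle wells.

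PPARα is a ligand-activated transcription factor that binds DNA as a dimer with the retinoid X receptor RXRα, usually at a DR1 element, a direct repeat of a short motif with 1 base between the copies. In the liver it is switched on by fatty acids during fasting and drives their uptake, activation and breakdown in mitochondria, peroxisomes and the endoplasmic reticulum, and the making of ketone bodies. In rats and mice, its agonists increase the number of peroxisomes in hepatocytes, which is where the name of the receptor family comes from. In TempO-Seq, a pair of detector oligos is ligated on each target transcript, and the ligated probe is counted as reads.

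The WT wells with WY14643 at 200 µM held between 6471380 and 8667331 reads and the vehicle wells between 5492941 and 8264980, and the ST wells held between 1328682 and 1953336 and between 984283 and 1643796. Of 10191 genes tested by WT, 1536 rose (15.1%) and 1418 fell (13.9%). The counts of each gene list below are to be read against these shares. Batch 1 alone gave 3680 calls and batch 2 alone 4455, and 2963 genes were called in both batches, 9 of them with opposite signs. Across all genes tested, the log2 fold changes (L2FC) of the batches had a Pearson's r of 0.89, which describes these genes, since genes are not independent replicates. The size of the change was not symmetric: 97 genes rose by at least 3 on the log2 scale in each batch and 7 fell by as much. The median L2FC of all genes tested was -0.01. Vehicle wells of both plates of batch 2 differed in 0 genes by edgeR after adjustment, and in 1423 genes at an unadjusted p under 0.05. That is a larger share of the 10191 genes than the 0.05 expected with no difference, so the plates are not shown to be alike.

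**Figure D1:**
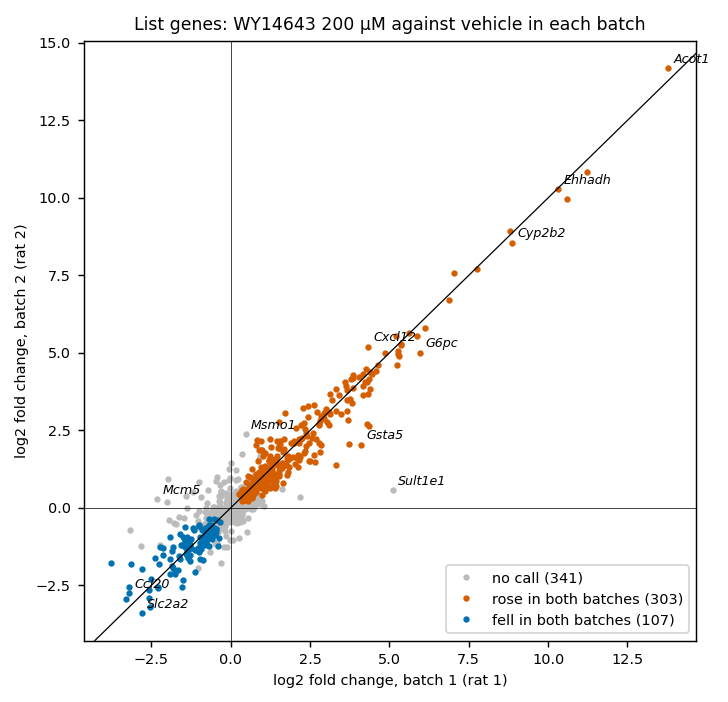
Each point is a gene of the 40 gene lists tested by WT, with the L2FC of WY14643 200 µM against vehicle in batch 1 on the x axis and in batch 2 on the y axis, both on a log2 scale. Of these genes 303 rose (orange) and 107 fell (blue) in both batches, most points lie near the line of equal change, and the genes that rose reach much larger values than those that fell.

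The receptor's own gene rose. Ppara stood at 28.3, 36.6 and 29.6 CPM (reads scaled to a common library size with TMM factors) in the vehicle wells of batch 1 and at 73.5, 62.1 and 114 with WY14643. In batch 2 vehicle ranged from 64.4 to 82.7 (median 73.9), and the treated wells held 132, 149 and 136, so all treated wells of each batch lay above its vehicle wells. The L2FC was 1.41 ± 0.26 (SE, adjusted p = 9.1e-06) in batch 1 and 0.90 ± 0.21 (adjusted p = 0.00027) in batch 2. By ST the batch 2 change of Ppara did not pass (L2FC 0.64, adjusted p = 0.068). The partner gene Rxra rose by an L2FC of 1.16 ± 0.13 and 0.66 ± 0.10. Among 22 tested receptors and cofactors, 9 rose and 1 fell, and the largest rise by the mean of both batches was of Nr1i3, which encodes CAR, the receptor that controls drug-metabolizing enzymes. Nr1i3 went from 4.77, 4.66 and 4.48 CPM to 43.7, 38.6 and 41.1 in batch 1, and from 2.25 to 7.11 (median 5.71) to 44.5, 44.4 and 40.9 in batch 2. That is an L2FC of 3.14 ± 0.24 and 3.02 ± 0.19, with no overlap of wells. Creb3l3, which encodes a liver transcription factor of fasting, had a mean L2FC of 2.03, and Nr0b2, which encodes the corepressor SHP, had an L2FC of 3.31 in batch 1 and 1.39 in batch 2, a call lost against wells of culture medium alone (mean L2FC 1.66). The one that fell, Ahr, which encodes the dioxin receptor, was picked after its values were seen and had an L2FC of -0.87 and -1.70.

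Peroxisomal β-oxidation, which shortens very long and branched fatty acids, rose almost throughout its list: 16 of 18 tested genes rose and 0 fell, with a median L2FC of 3.05 against -0.01 over all genes tested. Ehhadh, a bifunctional enzyme of the pathway, was nearly absent from vehicle wells, at 2.91, 1.90 and 0.799 CPM in batch 1 and at 0.727 to 2.52 in batch 2. With WY14643 it reached 2375, 2211 and 2957 CPM in batch 1 and 1959, 2083 and 2050 in batch 2, an L2FC of 10.31 ± 0.28 and 10.28 ± 0.24. Ech1, a dienoyl-CoA isomerase, rose by 5.30 ± 0.23 and 4.89 ± 0.15. Nudt19 and Slc25a17, the members not called, had a mean L2FC of 0.37 and -0.08.

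Genes for building peroxisomes rose less. Of 22 tested, 13 rose and 0 fell, with a median L2FC of 0.62. Pex11a, whose product helps peroxisomes divide, stood apart with an L2FC of 5.27 ± 0.26 and 5.07 ± 0.18, from between 1.28 and 1.98 CPM in vehicle wells of batch 1 to 51.0, 59.8 and 75.2. Catalase (Cat), the peroxisomal enzyme that removes hydrogen peroxide, rose by 3.41 ± 0.12 and 3.63 ± 0.10, and the membrane protein gene Pxmp4 by 2.79 ± 0.17 and 2.09 ± 0.11.

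**Figure D2:**
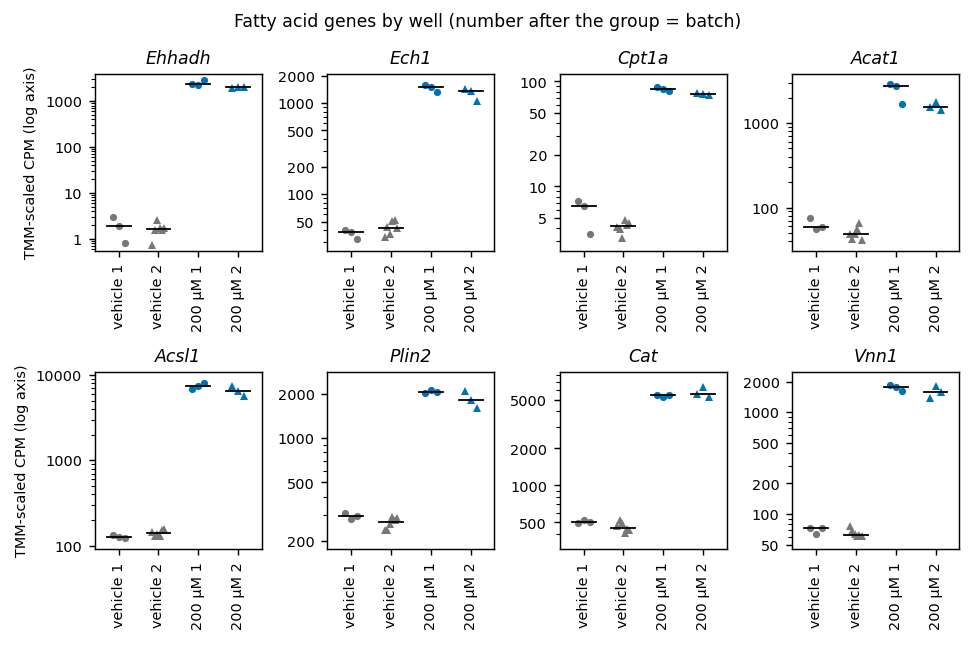
TMM-scaled CPM (y axis, log scale) of 8 fatty acid genes in each WT well, by group and batch (circles batch 1, triangles batch 2, bars medians). In every panel and batch, the WY14643 200 µM wells lie above all vehicle wells, as for Ehhadh between 1959 and 2957 CPM against at most 2.91 with vehicle.

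The CYP4A enzymes, which hydroxylate the far end of fatty acids, showed some of the largest changes of all genes. Cyp4a1 was at 1.05, 1.55 and 2.24 CPM with vehicle in batch 1 and at 3750, 3701 and 4039 with WY14643, and in batch 2 at 0.850 to 2.37 against 2807, 3208 and 3191. Its L2FC was 11.24 ± 0.27 and 10.83 ± 0.35, and that of Cyp4a2 was 10.59 ± 0.20 and 9.98 ± 0.30. These paralogs are close in sequence, and the authors' alignment allowed mismatches, so how the reads divide between them is uncertain. The rest of the CYP4 list moved little: 4 of its 8 tested genes rose, 0 fell, and Cyp4f39 had an L2FC of 0.88 and 0.93, a call lost against wells of culture medium alone (mean L2FC 0.61).

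In mitochondria, 21 of 22 tested genes of the carnitine shuttle and β-oxidation rose and 0 fell (median L2FC 2.88). Cpt1a, the liver form of the enzyme that admits fatty acids, rose 14.3-fold and 18.1-fold, from 7.33, 6.55 and 3.52 CPM to 88.6, 84.1 and 80.4 in batch 1 and from 3.26 to 4.82 (median 4.17) to 77.3, 75.1 and 74.1 in batch 2. Cpt1b, the form typical of muscle, changed more, from 4.88, 3.97 and 3.52 CPM to 490, 493 and 674 in batch 1. Its L2FC was 7.04 ± 0.23 and 7.56 ± 0.23, against 3.84 ± 0.29 and 4.18 ± 0.21 for Cpt1a. Acsl1, which activates fatty acids with coenzyme A, rose by 5.88 ± 0.23 and 5.54 ± 0.14, and the thiolase Acaa2 by 5.38 ± 0.16 and 5.25 ± 0.18.

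Of 6 tested ketone body genes, 4 rose and 1 fell. Acat1, a mitochondrial thiolase, was at 75.0, 55.4 and 59.2 CPM with vehicle in batch 1 and at 2855, 2769 and 1690 with WY14643, and it rose by 5.27 ± 0.26 and 4.96 ± 0.23. No treated well overlapped the vehicle wells. Slc16a1, a transporter that carries ketone bodies across membranes, rose by 2.46 ± 0.11 and 2.09 ± 0.12. The gene that fell, Oxct1, encodes the enzyme with which other tissues use ketone bodies. It was named after its values were seen and had an L2FC of -1.53 (adjusted p = 0.038) and -2.57 (adjusted p = 0.00087), a call lost when any of 3 wells of batch 1 was left out.

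All 7 tested acyl-CoA thioesterases, which release free fatty acids from coenzyme A, rose, with a median L2FC of 4.50. Acot1 had 1 read in all vehicle wells of batch 1 and 1 in those of batch 2, and between 5529 and 5932 reads in each treated well. The ratio of its summed reads, scaled by library size, was 19860 (95% counting interval 3563 to 784300) in batch 1 and 31890 (5724 to 1260000) in batch 2. These intervals cover counting error only, and the position of the ratio within them is not known. Acot4 rose by 6.12 ± 0.28 and 5.79 ± 0.18 and Acot2 by 5.24 ± 0.20 and 4.62 ± 0.17. The close likeness of these paralogs leaves the division of reads uncertain here too.

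Of 24 tested genes for lipid droplets, uptake and binding, 14 rose and 1 fell (median L2FC 0.96). Fabp1, the liver fatty acid binding protein, went from 42.9, 59.7 and 36.3 CPM to 9536, 9507 and 10800 in batch 1, and from 17.7 to 25.1 (median 22.3) to 5218, 4821 and 3645 in batch 2. Its L2FC was 7.75 ± 0.27 and 7.71 ± 0.22. The droplet coat gene Plin2 changed by 2.80 ± 0.13 and 2.79 ± 0.09 from a higher vehicle level of 310, 284 and 295 CPM in batch 1. Fabp3, the binding protein typical of heart, rose by 5.62 ± 0.46 and 5.65 ± 0.40, and Hilpda, an inhibitor of droplet lipolysis, by 3.84 ± 0.14 and 4.28 ± 0.12.

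DR1 letters were searched in the 250 bases before the start of each gene, taken from RefSeq (GRCr8) and matched by symbol. Of the 97 genes that rose by at least 3 on the log2 scale in each batch, 71 had a promoter in the table, and 2 of them, Fabp1 and Acot4, held NGGNCANAGGNCN on either strand (2.82%). Of all 33469 promoters of that length, 605 held it (1.81%), and of the 7535 matched genes that were tested 159 did (2.11%). The shares were 3.22% of the 1150 matched genes that rose and 1.70% of the 1061 that fell, and 5 of the 76 matched genes of the 8 fatty acid lists that rose held it (6.58%). The stricter AGGNCANAGGNCA, whose matches are all among those of the first motif, was held by 0.696% of the genes that rose, 0.189% of those that fell and 0.368% of all promoters. The full consensus AGGTCANAGGTCA, a subset of both, was held by 0 of the 1150 genes that rose and by 4 of 5324 with no call. These are counts of letters and not of bound sites, and elements farther from the start were not searched. Both stretches are shown because they are the matches among the most strongly raised genes. They are printed 5′ to 3′ on the gene's strand with the motif in capitals, which reads as its reverse complement in each. In Fabp1 it covers bases 77 to 65 before the start and in Acot4 bases 13 to 1. The stretches lie on the plus strand at chr4:104749233-104749305 and chr6:109399811-109399853.
Fabp1: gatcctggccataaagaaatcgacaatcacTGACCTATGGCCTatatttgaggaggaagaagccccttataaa
Acot4: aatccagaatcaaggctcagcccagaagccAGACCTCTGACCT

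Genes that switch fuel use moved in the same comparison: 14 of 19 tested rose and 3 fell (median L2FC 2.16). Pdk4, which turns off pyruvate entry into the citric acid cycle, had 3 reads over the vehicle wells of batch 1 and 7 over those of batch 2, against 389 to 808 reads in each treated well. The ratio of its scaled reads was 510 (95% counting interval 174 to 2477) and 536 (260 to 1334). Glycerol kinase (Gk) rose by 5.22 ± 0.14 and 5.54 ± 0.12, and Vnn1, a pantetheinase, by 4.65 ± 0.15 and 4.61 ± 0.14. The fasting hormone Fgf21 rose far less, by 1.36 ± 0.23 and 1.08 ± 0.16, from 43.3, 57.1 and 31.0 CPM to 98.0, 110 and 128 in batch 1. Against wells of culture medium alone, the call for Fgf21 was lost (mean L2FC 0.49). Angptl4 and Cyp8b1 were not analysed here.

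Synthesis genes rose beside the breakdown genes. Of 18 tested genes for fatty acid and triglyceride synthesis, 13 rose and 1 fell (median L2FC 1.17). Elovl6, an elongase, rose by 4.27 ± 0.41 and 4.49 ± 0.38, and the desaturase Scd by 3.78 ± 0.24 and 4.16 ± 0.21, from 18.3, 20.7 and 10.2 CPM to 256, 212 and 208 in batch 1. Of 20 tested genes of cholesterol synthesis and uptake, 14 rose and 0 fell (median L2FC 1.40). Insig1, a brake on that pathway, rose by 2.37 ± 0.13 and 2.42 ± 0.14, Fdps by 1.55 ± 0.21 and 2.06 ± 0.19, and Hmgcs1 by 1.51 ± 0.27 and 2.78 ± 0.21.

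Among 16 tested apolipoprotein and assembly genes 5 rose and 1 fell, the latter a smaller share than the 13.9% of all genes, led by Mttp, which loads lipid onto apolipoprotein B, with an L2FC of 2.42 ± 0.11 and 2.92 ± 0.08. Apoa5, the one that fell (named after its values were seen), had an L2FC of -1.27 and -1.30. Of 4 tested bile acid synthesis genes, Akr1d1 rose by 2.83 ± 0.17 and 2.96 ± 0.20, and Cyp27a1 had an L2FC of -0.62 ± 0.23 and -0.91 ± 0.17. Its wells overlapped in batch 1, and the call was lost when any of 4 wells of batch 1 was left out, with a mean L2FC between -0.75 and -0.71. Cyp7a1, the rate-limiting enzyme of bile acid synthesis, had 0 reads over the 6 treated wells and 1 over the 9 vehicle wells, and could not be tested. Of 13 tested transporters 3 rose and 3 fell, against 15.1% and 13.9% of all genes tested. Abcb11, the bile salt export pump, rose by 1.76 ± 0.15 and 1.44 ± 0.12, and Abcc2, which exports conjugates, fell by 1.35 and 1.33 on the log2 scale.

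Drug-metabolizing enzymes outside the fatty acid pathways also changed. Of 26 tested CYP1, CYP2 and CYP3 genes 14 rose and 1 fell (median L2FC 0.87). Cyp2b2, the classical target of phenobarbital in rat liver, went from 3.49, 5.52 and 1.92 CPM to 1759, 1652 and 1622 in batch 1, and from 0.851 to 3.40 (median 1.99) to 756, 871 and 743 in batch 2. The L2FC was 8.86 ± 0.36 and 8.56 ± 0.30. Cyp2b1, a near-identical paralog, had at most 3 reads in any vehicle well and at least 155 in each treated well, with a ratio of 121 (95% counting interval 63.2 to 264) and 112 (60.2 to 234). By ST its change was larger, with an L2FC of 8.75 and 8.59 against 6.87 and 6.70 by WT. How the reads divide between Cyp2b1 and Cyp2b2 is uncertain. AABR07035343.1, listed by RefSeq as a synonym of Cyp3a23-3a1, rose by 4.37 ± 0.37 and 3.83 ± 0.35. Por, which passes electrons to all of these enzymes and was named after its values were seen, rose by 3.08 and 2.69.

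Of 31 tested conjugation genes 12 rose and 4 fell, the latter near the share of 13.9% over all genes tested. The glutathione transferases Gsta2 and Gsta5 rose by 3.71 ± 0.22 and 4.11 ± 0.25 in batch 1 and by 2.05 ± 0.21 and 2.03 ± 0.21 in batch 2, and the sulfotransferase Sult2a2 by 2.22 ± 0.21 and 2.66 ± 0.26. By ST the L2FC of Sult2a2 was 4.62 in batch 1 and 2.85 in batch 2. Among 13 tested carboxylesterase, epoxide hydrolase and FMO genes 7 rose and 3 fell. The soluble epoxide hydrolase Ephx2 rose 21.0-fold in each batch, from 8.72, 7.93 and 8.15 CPM to 181, 169 and 173 in batch 1. Fmo1, a flavin monooxygenase, fell by 2.53 and 3.19 on the log2 scale. Of 12 tested aldehyde dehydrogenases 5 rose and 0 fell, with Aldh1a1, which makes retinoic acid, at 2.61 ± 0.39 and 3.32 ± 0.34 and Aldh3a2, which oxidizes fatty aldehydes, at 1.63 ± 0.15 and 1.44 ± 0.13.

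**Figure D3:**
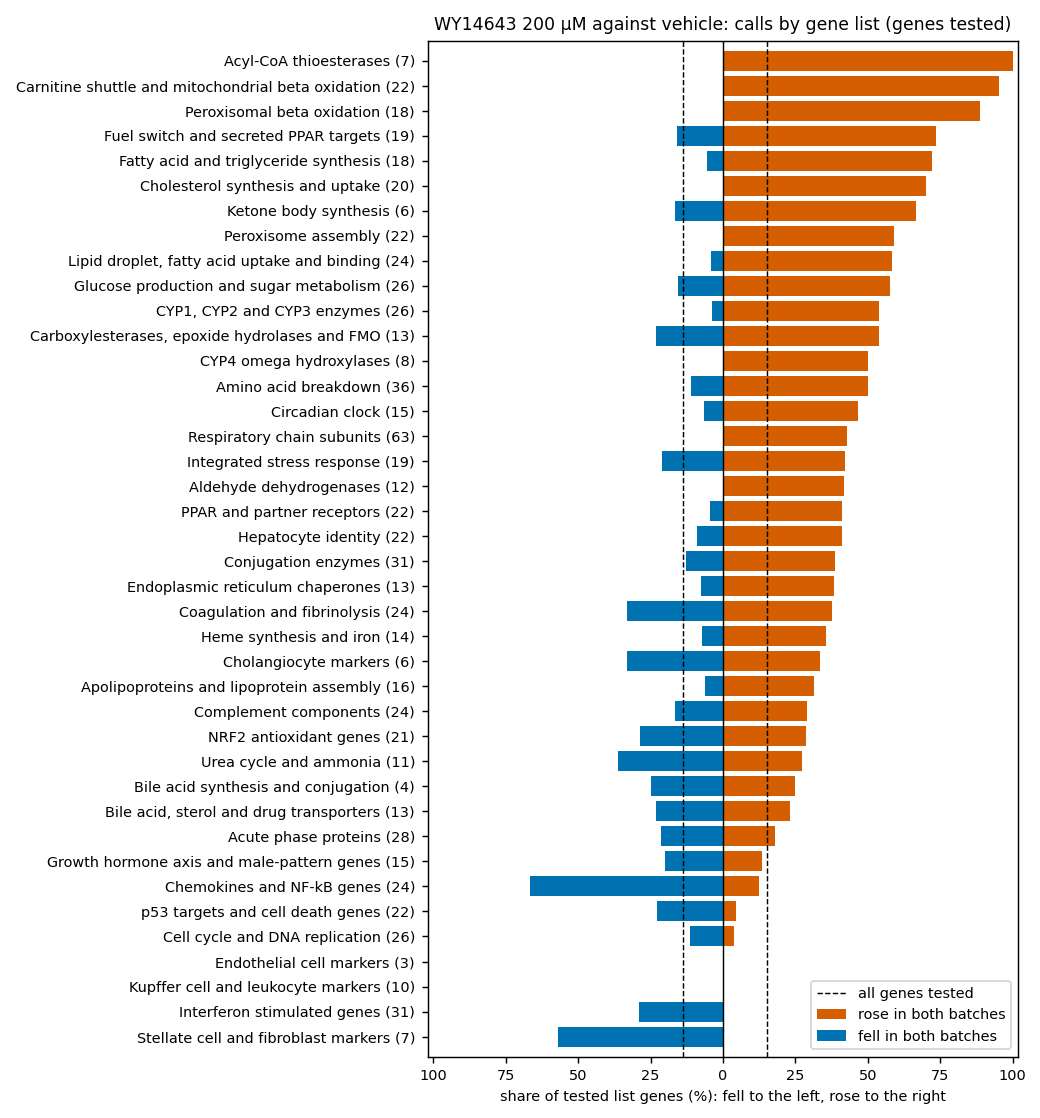
Share of the tested genes of each of the 40 lists that rose (to the right) or fell (to the left) in both batches, in percent, with the number of tested genes in brackets and the shares over all genes tested, 15.1% and 13.9%, as dashed lines. Thioesterases and mitochondrial and peroxisomal β-oxidation stand at the top, and the chemokine and interferon lists fall mainly to the left.

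Glucose metabolism showed opposite changes within its list, in which 15 of 26 tested genes rose and 4 fell (median L2FC 1.03). The gluconeogenic enzyme G6pc, which frees glucose from glucose 6-phosphate, was at 0.698, 0.172 and 0.320 CPM with vehicle in batch 1 and between 19.8 and 34.1 with WY14643, and in batch 2 at 0.275 to 0.851 against 12.6, 20.6 and 20.3. The L2FC was 5.95 ± 0.45 and 5.00 ± 0.35. Pck1, the other gatekeeper of gluconeogenesis, rose by 4.03 ± 0.27 and 4.22 ± 0.22. Slc2a2, the gene of the glucose carrier GLUT2, went the other way, from 113, 109 and 103 CPM to 18.8, 16.9 and 10.6 in batch 1, and from 99.5 to 132 (median 105) to 11.1, 10.2 and 9.64 in batch 2. It was 6.96-fold and 10.6-fold lower, with no overlap of wells. The liver pyruvate kinase Pklr, a step of glycolysis, was 9.87-fold and 7.61-fold lower.

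Of 36 tested amino acid breakdown genes 18 rose and 4 fell. Tdo2, which opens tryptophan breakdown, rose by 2.68 ± 0.24 and 2.22 ± 0.19, Agxt, a peroxisomal aminotransferase in glyoxylate removal, by 2.37 ± 0.23 and 2.00 ± 0.16, and Hal, which degrades histidine, fell by 2.79 and 1.97 on the log2 scale. Of 11 tested urea cycle and ammonia genes 3 rose and 4 fell. Ass1, which makes argininosuccinate, stood at 160, 176 and 128 CPM with vehicle in batch 1 and at 38.8, 29.0 and 27.6 with WY14643, and it was 4.85-fold and 5.88-fold lower. The mitochondrial aspartate carrier Slc25a13 rose by 1.82 ± 0.27 and 1.64 ± 0.23, and the cationic amino acid transporter Slc7a2 by 1.13 ± 0.11 and 1.30 ± 0.10.

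Of 24 tested chemokine and NF-κB genes 16 fell and 3 rose (median L2FC -0.77). Ccl20, which attracts lymphocytes and dendritic cells, went from 7.91, 7.42 and 7.83 CPM to 1.21, 0.671 and 0.541 in batch 1, and from 3.12 to 5.36 (median 3.45) to 0.397, 0.851 and 0.396 in batch 2, an L2FC of -3.20 ± 0.48 and -2.76 ± 0.55. Its call was lost against wells of culture medium alone (mean L2FC -0.96), where 9 chemokine and NF-κB genes fell in place of 16. Cxcl11, an interferon-induced chemokine, had an L2FC of -2.56 ± 0.26 and -2.90 ± 0.46. Cxcl12 rose, which encodes the ligand of CXCR4. It went from 21.3, 27.2 and 15.5 CPM to 410, 393 and 481 in batch 1, and from 6.37 to 9.36 (median 8.06) to 286, 298 and 294 in batch 2, a rise of 20.1-fold and 36.7-fold. Nfkbiz and Sod2, the other 2 that rose, had a mean L2FC of 1.34 and 1.02 and were named after their values were seen.

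Of 31 tested interferon stimulated genes 9 fell and 0 rose (median L2FC -0.55). The guanylate binding protein genes Gbp2 and Gbp5 had an L2FC of -1.92 ± 0.23 and -1.75 ± 0.17 in batch 1 and of -2.13 ± 0.30 and -2.12 ± 0.24 in batch 2, and Psmb9, an immunoproteasome subunit, of -1.37 ± 0.19 and -1.38 ± 0.17. In the same wells, 0 of 10 tested Kupffer cell and leukocyte markers were called. The summed level of all 16 of these markers ran from 115 to 161 CPM with WY14643 and from 129 to 168 with vehicle in batch 1, and from 70.2 to 94.7 and from 88.2 to 133 in batch 2. In lysate of whole wells, fewer cells of a type and less RNA per cell cannot be told apart, and the part of such cells in the immune genes was not tested.

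Among proteins that hepatocytes secrete into blood, coagulation genes were called in both directions. Of 24 tested coagulation and fibrinolysis genes 9 rose and 8 fell, and 4 rose against wells of culture medium alone. Serpind1, the gene of heparin cofactor II, went from 217, 271 and 193 CPM to 41.1, 34.9 and 37.0 in batch 1, and was 6.02-fold and 6.31-fold lower. F3, which encodes tissue factor, had an L2FC of -3.14 ± 0.33 and -1.80 ± 0.30. Of 28 tested acute phase genes 5 rose and 6 fell, and 2 rose when batch 2 was compared with the vehicle wells of its own plate only. These shares are near those of all genes tested (15.1% and 13.9%). Crp went from 111, 117 and 89.8 CPM to 458, 515 and 398 in batch 1, an L2FC of 2.11 ± 0.26 and, in batch 2, 1.32 ± 0.19, and Itih3, an inter-α-trypsin inhibitor chain, of -0.82 ± 0.19 and -0.86 ± 0.12. Of 24 tested complement genes 7 rose and 4 fell, among them Masp2, a protease of the lectin pathway, with 1.35 ± 0.18 and 1.56 ± 0.15.

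**Figure D4:**
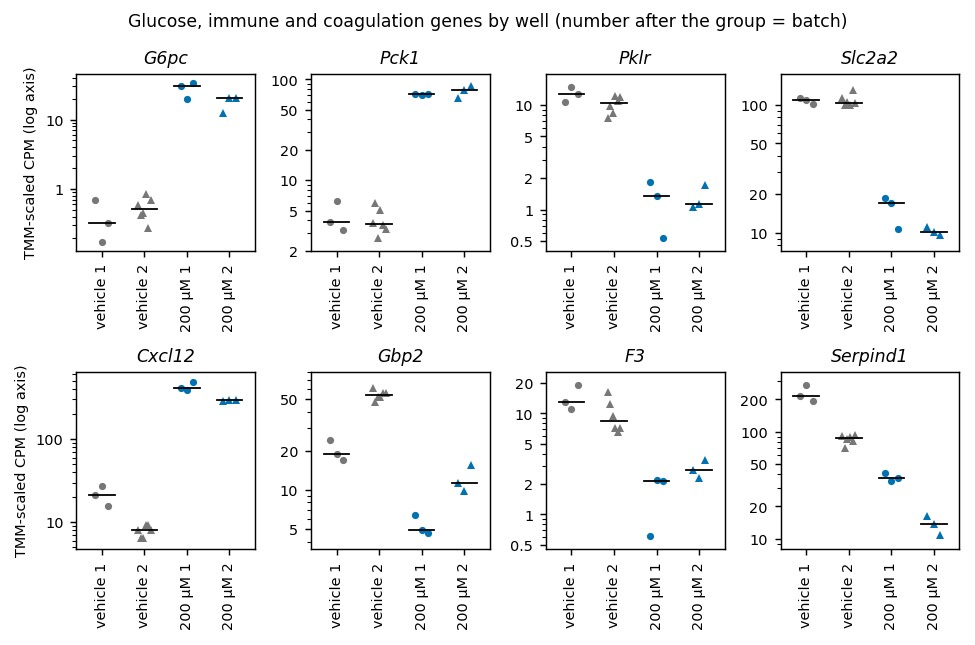
TMM-scaled CPM (y axis, log scale) of 8 glucose, immune and coagulation genes in each WT well, by group and batch (circles batch 1, triangles batch 2, bars medians). G6pc, Pck1 and Cxcl12 lie higher in every WY14643 200 µM well than in every vehicle well of the batch, and Pklr, Slc2a2, Gbp2, F3 and Serpind1 lie lower.

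Stress lists gave smaller and mixed values, and their counts stand against 15.1% of all genes tested that rose and 13.9% that fell. Of 19 tested genes of the integrated stress response 8 rose and 4 fell, and against culture medium alone 4 rose and 7 fell. Ddit3, which encodes CHOP, had an L2FC of 1.52 ± 0.14 and 1.20 ± 0.14 and Atf3, a stress-induced transcription factor, of -1.59 ± 0.22 and -1.64 ± 0.25. Of 13 tested endoplasmic reticulum chaperone genes 5 rose and 1 fell. Herpud1, which serves the removal of misfolded proteins, rose by 1.45 ± 0.17 and 1.06 ± 0.11, and Hspa5, the chaperone BiP, by 1.33 ± 0.43 and 1.42 ± 0.44, a call lost when any of 3 wells was left out (mean L2FC 1.14 to 1.31). Of 21 tested NRF2 genes 6 rose and 6 fell, and 3 rose against culture medium alone. Nfe2l2, the gene of NRF2, went from 634, 587 and 648 CPM to 292, 276 and 198 in batch 1, an L2FC of -1.28 ± 0.18 and, in batch 2, -1.16 ± 0.18. Of 22 tested p53 targets and cell death genes 1 rose and 5 fell, with Bcl2, an inhibitor of apoptosis, at -1.36 ± 0.26 and -1.51 ± 0.18. Of 26 tested cell cycle genes 1 rose and 3 fell, near or under the shares over all genes, with Ccnd1, which encodes cyclin D1, at -2.21 ± 0.28 and -1.25 ± 0.30.

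Of 63 tested respiratory chain subunits 27 rose and 0 fell, by small amounts (median L2FC 0.39). Ndufc1, a subunit of complex I, rose by 1.28 ± 0.11 and 1.38 ± 0.08, the most of the list. Of 15 tested circadian clock genes 7 rose and 1 fell. Dbp, a transcription factor of the clock's output, rose 5.64-fold and 2.82-fold, its relative Hlf by 2.25 ± 0.30 and 2.26 ± 0.26, and the repressor Nr1d2 by 1.51 ± 0.21 and 1.93 ± 0.19. Of 14 tested heme and iron genes 5 rose and 1 fell, among them Alas1, the first enzyme of heme synthesis, with 1.83 ± 0.20 and 1.33 ± 0.15. Of 15 tested growth hormone axis and male-pattern genes 2 rose and 3 fell, near the shares over all genes, with Cyp2c13 at 1.70 ± 0.26 and 3.05 ± 0.31.

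The cells carried hepatocyte markers in every group. Alb was at 11690, 11230 and 9685 CPM with vehicle in batch 1 and at 14720, 15520 and 16500 with WY14643, an L2FC of 0.52 ± 0.17 (adjusted p = 0.011), and in batch 2 the L2FC was 0.21 ± 0.10 (adjusted p = 0.075), so that no change was called. Of 22 tested hepatocyte identity genes 9 rose and 2 fell, with the transcription factor gene Cebpa at 2.13 ± 0.17 and 1.72 ± 0.12 and the retinol carrier Rbp4 at 1.37 ± 0.23 and 1.09 ± 0.14. Onecut1, among those that fell and named after its values were seen, had an L2FC of -0.41 and -1.24. Of 7 tested stellate cell and fibroblast markers 4 fell and 0 rose. The sum of all 15 ran from 299 to 360 CPM with WY14643 against 601 to 648 with vehicle in batch 1, and from 146 to 198 against 361 to 465 in batch 2. Reln and Tagln made up much of that sum and of its fall. Their means were 236 and 90.8 CPM over the 9 vehicle wells and 67.3 and 22.8 over the 6 treated wells. The sum thus does not describe the list as a whole. Tagln, Reln and Vim had a mean L2FC of -2.03, -1.84 and -1.16. Col1a1, a defining collagen of such cells, had 0 reads over the 6 treated wells and 2 over the 9 vehicle wells, and Acta2, a smooth muscle actin, had 2 and 36. Other collagens were not called: Col3a1 had an L2FC of -0.07 and 0.42, and Col1a2 of -0.09 in each batch. What part these cells had in the other genes that fell was not tested. Of 3 tested endothelial markers 0 were called, and of 6 tested cholangiocyte markers 2 rose and 2 fell, with Sox9 at 1.08 ± 0.33 and 1.21 ± 0.33 (call lost against culture medium alone, mean L2FC 0.64) and Anxa4 at -1.12 ± 0.17 and -1.37 ± 0.14.

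Some of the strongest changes lay outside every list. Chrna2, a nicotinic acetylcholine receptor subunit, had 0 reads in the vehicle wells of batch 1 and 220 to 341 in each treated well, at least 324-fold higher against a limit of 3 reads over those vehicle wells. In batch 2 it had 2 vehicle reads and 559 to 613 reads per treated well, a ratio of 1626 (95% counting interval 450 to 13440). The keratin gene Krt23 had 1 vehicle read in each batch and a ratio of 654 (117 to 25870) and 757 (135 to 29980). Among genes that fell and had a mean of at least 5 CPM in the higher group of each batch, Gimd1 ranked first by the smaller change of its batches. It went from 12.1, 9.83 and 12.6 CPM to 0.910, 0.504 and 0.902 in batch 1, and from 4.82 to 6.80 (median 5.29) to 0.264, 0.283 and 0.792 in batch 2, an L2FC of -3.87 ± 0.45 and -3.60 ± 0.42. Smpd3, a neutral sphingomyelinase, was 9.69-fold and 10.6-fold lower, and Ankrd1, an ankyrin repeat protein that responds to stretch, 11.6-fold and 9.43-fold. Rcan1, a regulator of calcineurin, went from 140, 144 and 162 CPM to 22.3, 20.0 and 20.4 in batch 1 and was 7.12-fold and 7.42-fold lower. With Pklr and Slc2a2, given above, Map3k7cl, Hs3st2, Stx11 and Fam71a completed the 10 genes that fell most by that ranking. The mean L2FC was -3.19 for Map3k7cl and -2.97 for Stx11. Fam71a had -2.99 ± 0.96 and -2.82 ± 0.50, a call lost without batch 1 WY14643 replicate 1 (mean L2FC -2.75). Hs3st2, which encodes a heparan sulfate sulfotransferase, had -6.67 and -3.09, and its call was lost against culture medium alone (mean L2FC -3.09).

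Whether 200 µM differed from 8 µM was tested directly. Of 10191 genes, 51 were higher (0.500%) and 68 lower (0.667%) at 200 µM in both batches. With 1 of the 200 µM wells left out, 36 to 46 were higher and 38 to 56 lower (38 and 40 without batch 2 WY14643 replicates 1 and 2), and with both batches in 1 fit and the batch as block 257 and 328. None of the genes tested in the lists of peroxisomal β-oxidation, peroxisome assembly, CYP4 enzymes, mitochondrial β-oxidation, ketone bodies and thioesterases was among them. For Ehhadh the L2FC of 200 against 8 µM was -0.37 ± 0.17 in batch 1 and -0.25 ± 0.20 in batch 2, and for Cyp4a1 0.35 ± 0.16 and 0.35 ± 0.28. Fabp1 was lower at the higher concentration, at 9507 to 10800 against 16300 to 19440 CPM in batch 1 (L2FC -0.88 ± 0.20, adjusted p = 0.0031) and by 1.02 on the log2 scale in batch 2.

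Against 0.500% of all genes tested, 9 of 26 tested CYP1, CYP2 and CYP3 genes, 7 of 31 conjugation genes, 2 of 13 carboxylesterase, epoxide hydrolase and FMO genes and 3 of 26 glucose genes were higher at 200 than at 8 µM. Higher than at 8 µM did not always mean higher than vehicle. Cyp2c11, Cyp2c24, Cyp2f4, Ugt2a3 and Ugt2b35 were among them and were not called at 200 µM against vehicle. For Cyp2f4 the L2FC against vehicle was -1.46 and -2.10 at 8 µM and -0.02 and -1.05 at 200 µM. For Ugt2a3 it was -1.75 and -1.68 at 8 µM and -0.45 and -0.47 at 200 µM. Against 0.667% of all genes, 3 of 20 cholesterol genes, 2 of 18 fatty acid and triglyceride synthesis genes, 2 of 19 fuel switch genes and 2 of 24 lipid droplet genes were lower. Cyp2b2 stood at 199, 183 and 169 CPM at 8 µM in batch 1 and at 90.9, 129 and 120 in batch 2, between vehicle and 200 µM, and was 9.13-fold and 6.99-fold higher at 200 µM. AABR07035343.1 was 13.9-fold and 6.38-fold higher, and Crp 3.91-fold and 2.64-fold. The other genes named here for concentration were chosen after their values were seen. Ugt2b17, which RefSeq lists under Ugt2b1 and whose family shares much sequence, lay on either side of vehicle. In batch 1 it was at 104, 90.4 and 82.2 CPM with vehicle, at 41.6, 48.1 and 17.6 at 8 µM and at 333, 363 and 237 at 200 µM. The L2FC against vehicle was -1.36 at 8 µM and 1.75 at 200 µM there, and -1.49 and 1.38 in batch 2. Abcc2 was lower than vehicle at both concentrations and less so at 200 µM, with 200 against 8 µM at 0.63 ± 0.19 and 1.08 ± 0.22. Car3, a carbonic anhydrase of muscle, fat and male rat liver, had an L2FC against 8 µM of -1.49 ± 0.20 and -1.42 ± 0.27, and Lmcd1, a transcriptional cofactor, of -2.87 ± 0.38 and -2.84 ± 0.47. The 2 comparisons with vehicle share the vehicle wells, so their values stand side by side here, and only the direct contrast is a test.

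**Figure D5:**
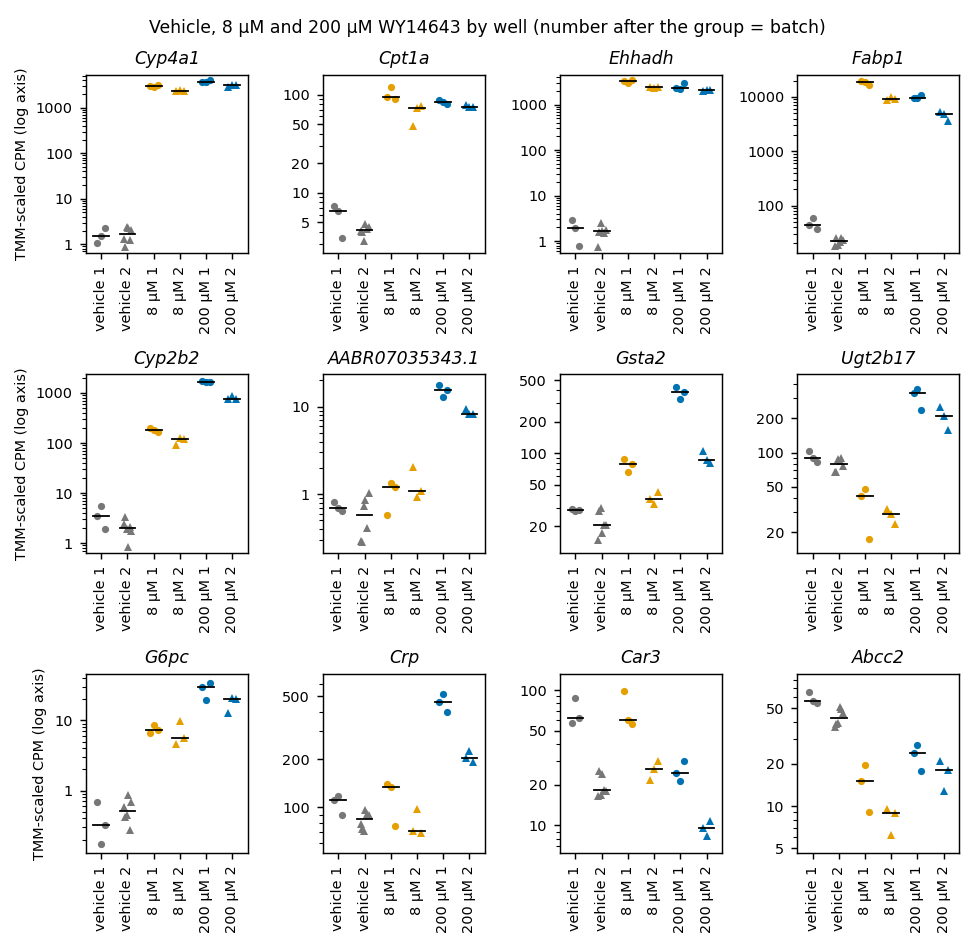
TMM-scaled CPM (y axis, log scale) of 12 genes in each WT well with vehicle, WY14643 8 µM and WY14643 200 µM (circles batch 1, triangles batch 2, bars medians). Cyp4a1, Cpt1a and Ehhadh lie at similar levels at both concentrations, Cyp2b2, AABR07035343.1, Gsta2, G6pc and Crp step up at 200 µM, and Ugt2b17 falls below vehicle at 8 µM and lies above it at 200 µM.

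The response differed between the rats in 105 of 10191 genes (1.03%) by the interaction of batch and treatment, a count that ran from 59 to 126 with 1 well left out and was 241 by DESeq2. Cholesterol synthesis held 9 of them among 20 tested, and all 9 changed more in batch 2. Hmgcs1 went from 5.00, 4.31 and 7.67 CPM to 13.5, 14.8 and 20.4 in batch 1, and from 2.20 to 4.29 (median 3.22) to 26.2, 23.5 and 17.0 in batch 2, a difference in L2FC of 1.31 ± 0.35 (adjusted p = 0.028). Conjugation enzymes held 5, and all 5 changed more in batch 1. Gsta5 had a difference in L2FC of -2.03 ± 0.33 (adjusted p = 1.4e-05). Sult1e1, the estrogen sulfotransferase, was named after its values were seen. It was at 1.28, 0.690 and 1.44 CPM with vehicle and at 41.2, 44.6 and 36.1 with WY14643 in batch 1 (L2FC 5.11), and in batch 2 it was at 2.62 to 8.50 with vehicle and at 8.72, 6.24 and 5.94 with WY14643 (L2FC 0.57, adjusted p = 0.090). The replication gene Mcm5, chosen in the same way, had an L2FC of -2.33 in batch 1 and 0.28 in batch 2. None of the genes of peroxisomal or mitochondrial β-oxidation differed by this test. With 1 rat per batch, the animal and everything else that changed between batches cannot be told apart.

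The ST assay measured the same wells again with a smaller probe set, in which many detector oligos are the same as in WT. Of 1760 genes tested by ST, 344 rose (19.5%) and 342 fell (19.4%). Of the 1603 genes tested by both assays, 648 were called by WT and 629 by ST, and 532 of these were called by both in the same direction and 0 in opposite directions. Among genes named here by rule, 76 of those called by WT were tested by ST, and 75 were called there in both batches in the same direction. The exception was Ppara, as given above. Most of these genes were picked for large WT changes in the same wells, so near-complete agreement was likely beforehand. For Ehhadh the ST values were 10.57 and 10.36, for Cyp2b2 8.85 and 8.81, for Slc2a2 -3.18 and -3.27 and for Cxcl12 4.25 and 5.14. The size of the change was not the same in both assays for every gene. Cyp2b1 had an L2FC of 8.75 and 8.59 by ST against 6.87 and 6.70 by WT. Sult2a2 had 4.62 by ST against 2.22 by WT in batch 1, and 2.85 against 2.66 in batch 2. As both assays used lysate of the same wells and share many oligos, ST repeats the measurement and is not independent evidence.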

How the data were processed

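Primary rat hepatocytes were profiled by TempO-Seq. The authors aligned reads to rn6 with STAR 2.5.3a, allowing mismatches, and deposited raw read counts per probe and well, which were not normalized. Samples were grouped from their labels. Probes of one symbol were summed, genes averaging 10 or more counts across the wells of an assay were kept, and each batch was fitted on its own with all its groups by edgeR 4.0.16 (quasi-likelihood test, TMM, Benjamini-Hochberg) in R 4.3.3. A call needed an adjusted p under 0.05 in both batches with the same sign. L2FC used a prior count of 0.125, which sets its size where vehicle wells hold almost no reads. For genes with at most 3 reads in every vehicle well, ratios of summed reads with exact 95% intervals were given instead. The SE was worked back from the test, as the absolute L2FC without prior count over the square root of its F statistic. It is approximate, most of all where vehicle wells hold few reads. The difference between batches came from 1 fit of all WT wells. Depth limits which low genes could be tested, and intervals cover counting error only, as reads are not molecules.

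Each rat gave the treated and vehicle wells of its batch, so the batch pairs them, and fitting each batch on its own keeps that pairing. Labels carry no replicate numbers, and those used here follow accession order. The comparison and the gene lists were chosen with earlier results of these data known, while the wells follow from their labels. From each of 40 lists, up to 3 called genes were named by the smaller absolute L2FC of the batches, with the 10 that rose and the 10 that fell most by that measure among genes with a mean of at least 5 CPM in the higher group of each batch, and a fixed set (among them Ppara, Rxra, Ehhadh, Cyp4a1, Cpt1a, Pdk4, Angptl4, Fgf21, Plin2, Cyp7a1, Cyp8b1, Alb). Of 1065 list genes 896 matched by symbol and 29 by RefSeq synonym. The code was tested on simulated data. Alternatives were DESeq2 1.42.0, RLE size factors, other filters, a minimum L2FC, probes, joint fits, other controls, fewer wells in the fit, and each WY14643 200 µM and vehicle well left out. Results for some genes are not reported here.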

Additional observations from a re-analysis of the deposited data

Results flagged for a closer look

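Among the genes named by rule, 5 responded differently in the rats by the interaction test. The L2FC of batch 2 minus batch 1 was 1.31 for Hmgcs1 and 0.53 for Mttp, both larger in batch 2, and -1.63 for Gsta2, -2.03 for Gsta5 and -0.96 for Dbp, larger in batch 1. All 5 rose in both batches. In the 6 vehicle wells of batch 2, of 129 genes looked at, 4 had a well far from the others, with a gap over the range of 1.00 for Acot1, 1.00 for Krt23, 0.68 for Fabp3 (highest well 1.42 CPM, median 0.36) and 0.64 for Ddit3 (lowest well 21.5 CPM, median 27.7). For Acot1 and Krt23 that well holds a single read. Chance flags about 1 in 20 such groups.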

How the results depend on the processing

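No named gene's mean L2FC changed sign under the alternatives run. Against culture medium wells, 1 WT call over all genes was opposite, and the integrated stress response went from 8 higher and 4 lower to 4 and 7. The treated and vehicle wells of a batch come from 1 rat, and with both batches in 1 fit and the batch as replicate block, 2650 genes rose and 2584 fell by WT, which include all 1536 and 1418 of the calls by batch, 523 fell by ST, and 257 were higher and 328 lower at 200 than at 8 µM. Such a fit needs no call in each batch, and list counts rose with it (Alb was then called, mean L2FC 0.30). Without that block, 2374 rose, 2333 fell, 131 were higher and 161 lower at 200 µM. Asking for an absolute L2FC of at least 1 left 552 and 539 by WT, 187 and 158 by ST, 25 and 18 against 8 µM, and 56 differences between batches. Differences between batches numbered 241 by DESeq2 and 170 against culture medium, and the cause was not tested. Of the WT calls, 1516 higher and 1406 lower were also called by DESeq2, and 1208 and 1130 against culture medium, where 8 of 129 named genes lost their call. With each WY14643 200 µM and vehicle well left out in turn, 1313 to 1529 genes rose and 1260 to 1423 fell by WT, 323 to 345 and 286 to 347 by ST, and 36 to 46 were higher and 38 to 56 lower at 200 than at 8 µM, where the 8 µM wells were not left out. Differences between batches ranged from 59 to 126: they numbered 61 without batch 1 WY14643 replicate 1, 63 without batch 1 vehicle replicate 3, and 67 and 59 without batch 2 WY14643 replicates 2 and 3. Genes lower at 200 than at 8 µM numbered 38 and 40 without batch 2 WY14643 replicates 1 and 2. Among the named genes' results with 1 well left out, 25 lost a call (Cyp4f39, Cyp27a1, Tk1, Myc, Hspa5, Sox9, Fam71a and Cd55).

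Each batch is 1 animal, and wells within it measure technical spread. In batch 1 the plate and the treatment cannot be told apart. Genes under a mean of 10 counts were not tested, and absence of a call does not show equal expression. Fold changes of genes nearly absent from vehicle wells are set by the prior count.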
